A study of Mus musculus with 27 samples.

Results

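The 9 genes described here are the contractile genes *Acta2*, *Tagln*, *Cnn1* and *Myl9*, the matricellular genes *Ctgf*, *Cyr61* and *Thbs1*, and the TGF-beta genes *Tgfb1* and *Tgfbi*. They were chosen by name, with earlier results of these data known. All 9 had a value in each of the 27 RNA-seq libraries, among 19009 genes measured in the total RNA experiment, 21354 in the siRNA experiment and 21509 in the inhibitor experiment. Fibroblasts that meet mechanical tension or active TGF-beta take on a contractile, myofibroblast-like program. In this program the transcription factor Srf and its cofactors bind CArG boxes at genes of the actin cytoskeleton, while Smad proteins relay the TGF-beta signal and Yap acts through Tead factors on genes such as *Ctgf* and *Cyr61*. *Acta2* (smooth muscle actin) is the standard marker of that state.

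The cells were immortalized mouse embryonic fibroblasts with a conditional knockout of *Setdb1* (*Setdb1* cKO iMEFs), recloned to a single line, in which 4-hydroxytamoxifen (4OHT) deletes *Setdb1*, the gene of a histone H3 lysine 9 methyltransferase. In the total RNA experiment, untreated cells, cells at day 5 after 4OHT and long-term KO cells were compared (3 libraries each). The day 5 cells and the long-term KO cells had both been given 4OHT for 4 days. The long-term KO cells were collected more than 2 weeks after 4OHT by the labels. In the siRNA experiment, cells received control siRNA (siCtrl) or *Dnmt1* siRNA (siDnmt1), without 4OHT or with it, and were harvested at day 6 (2 libraries for each of 4 groups). In the inhibitor experiment, untreated cells were set beside cells given TSA, a histone deacetylase inhibitor (150 nM for 24 h), PD0325901, an inhibitor of the kinase MEK (1 µM for the last 24 h), 4OHT with harvest at day 6, or 4OHT and PD0325901 together (2 libraries each). All groups share the floxed *Setdb1* line and its single clone, and no label ties replicates to separate cultures, so that p-values measure only the spread between these libraries. No group was given 4OHT without the floxed gene, so that 4OHT itself and loss of *Setdb1* cannot be told apart.

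Expression is given as FPKM, which scales fragments to transcript length and library size, so that levels can be compared between genes. Folds are ratios of group means unless called log2 fold changes, which come from limma on the log2(FPKM + 0.1) scale with their SE. Calls, for which alone "rose" and "fell" are used, needed a fold change of 2 or more and an adjusted p below 0.05. With 2 libraries in a group an exact permutation test cannot go below p = 0.333, and with 3 in a group it cannot go below 0.1.

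Promoters that hold the motif of Srf or of Tead factors are shown, because these factors are known to act on such genes. Each sequence is the 250 bases before the annotated start in mm9, read 5′ to 3′ on the strand of the gene. Capitals mark perfect CArG boxes, the motif of Srf (CC and GG around 6 bases that are each A or T), in *Tagln* and *Myl9*, and the Tead motif GGAATG, or CATTCC on the other strand, in *Acta2* and *Cyr61*.
*Tagln* (chr9:45744142-45744391, minus strand): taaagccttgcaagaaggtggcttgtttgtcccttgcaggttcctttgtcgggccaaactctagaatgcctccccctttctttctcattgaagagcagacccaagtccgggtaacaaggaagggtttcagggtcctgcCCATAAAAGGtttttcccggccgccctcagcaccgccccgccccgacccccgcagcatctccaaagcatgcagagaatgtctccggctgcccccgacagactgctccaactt
*Myl9* (chr2:156600950-156601199, plus strand): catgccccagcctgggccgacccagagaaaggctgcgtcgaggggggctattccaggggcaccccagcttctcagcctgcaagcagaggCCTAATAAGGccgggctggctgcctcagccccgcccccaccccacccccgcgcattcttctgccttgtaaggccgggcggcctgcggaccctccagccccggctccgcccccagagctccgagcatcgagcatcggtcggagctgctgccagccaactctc
*Acta2* (chr19:34329864-34330113, minus strand): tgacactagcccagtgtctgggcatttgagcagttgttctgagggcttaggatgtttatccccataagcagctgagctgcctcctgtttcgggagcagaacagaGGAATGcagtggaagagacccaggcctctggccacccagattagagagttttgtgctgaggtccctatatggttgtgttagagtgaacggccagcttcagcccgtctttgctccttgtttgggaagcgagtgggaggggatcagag
*Cyr61* (chr3:145312950-145313199, minus strand): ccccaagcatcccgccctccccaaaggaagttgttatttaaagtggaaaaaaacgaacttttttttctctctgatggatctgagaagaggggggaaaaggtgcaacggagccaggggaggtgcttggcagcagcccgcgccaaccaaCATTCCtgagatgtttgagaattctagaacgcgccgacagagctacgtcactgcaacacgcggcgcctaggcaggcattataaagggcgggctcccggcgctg
A perfect CArG box was found in 2 of the 8 promoters read, against 1.28% of 18462 protein-coding promoters. It begins 112 bases before the start of *Tagln* and 161 bases before that of *Myl9*. With 1 mismatch allowed, a search added after the data were seen, a box was found in 4 of the 8 (*Acta2*, *Tagln*, *Myl9* and *Thbs1*), against 17.0% of all promoters. *Acta2* holds 2 such boxes, ccctatatgg and ccttgtttgg, which begin 84 and 34 bases before its start. GGAATG on either strand was found in 2 of the 8, against 11.1% of all promoters. The AP-1 motif TGACTCA, or TGAGTCA on the other strand, was in none of the 8 windows and in 3.87% of all promoters. The motifs in capitals did not overlap one another.

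The positions are those of mm9. *Acta2* spans chr19:34314826-34329863, *Tagln* chr9:45737711-45744141, *Cnn1* chr9:21903697-21913665, *Myl9* chr2:156601200-156607393, *Ctgf* chr10:24315248-24318488, *Cyr61* chr3:145309935-145312949, *Thbs1* chr2:117937612-117952869, *Tgfb1* chr7:26472021-26490096 and *Tgfbi* chr13:56710964-56740700. Of the 50-base windows of the *Acta2* transcript, 0.404% are also present in *Actg1*, and the longest transcripts of the other 8 genes share no such window with another coding gene.

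Fragments per library were estimated from the FPKM intervals of 47 to 58 genes with 1 exon. The estimates were 37507000 to 42771000 in the total RNA experiment, 14159000 to 16026000 in the siRNA experiment and 11295000 to 13064000 in the inhibitor experiment. They are not counts of reads, and the paper states its own read numbers. *Dnmt1*, the target of the siRNA, was 80.5 and 73.4 FPKM with siCtrl and 12.2 and 10.6 with siDnmt1. *Setdb1* was 5.95, 5.53 and 5.16 FPKM in untreated total RNA and 4.16, 4.20 and 6.52 at day 5. With siCtrl it was 7.40 and 6.48 FPKM, and with 4OHT + siCtrl 7.58 and 5.00. The value covers the whole transcript, deleted exons and the rest, and so does not check the deletion. In the inhibitor experiment *Setdb1* is listed at 0 and 5.30 FPKM at 4OHT day 6 and at 0 in both 4OHT + PD0325901 libraries. It was 8.76 and 10.1 FPKM in untreated cells and 5.34 and 5.56 in PD0325901 replicates 1 and 2. The 4OHT + siCtrl libraries stood furthest apart within a group (r = 0.917 between them, across genes). In the library labelled PD0325901 replicate 2, a header line names 4OHT + PD0325901 instead, and the label was followed. Summed fibroblast markers were between 1279 and 4664 FPKM in all libraries, whereas summed skeletal muscle markers were at most 4.08 FPKM. Sums of smooth muscle and pericyte, endothelial, epithelial and macrophage markers rest on few genes. In no group did more than 3 genes of such a list have a mean of 1 FPKM or more.

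In untreated cells the 9 genes covered a wide range of levels. *Cyr61* (mean 469.9 FPKM in the inhibitor experiment), *Thbs1* and *Tagln* were the most abundant, within the top 2.05% of genes measured there. *Tgfb1* and *Cnn1* were the lowest, at 10.7 ± 0.998 and 3.07 ± 0.181 FPKM (SD, n = 2). The starting level of *Acta2* differed between experiments, at 33.1 ± 8.99 FPKM in untreated total RNA (n = 3), 46.7 ± 0.282 in untreated cells of the inhibitor experiment and 424 ± 19.7 with siCtrl (n = 2 each). The experiments used different libraries and transfection, and were not tested against each other. Levels below are therefore compared within an experiment.

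Across the 10 comparisons, MEK inhibition gave the largest changes of *Acta2*, *Tagln* and *Myl9*. All 4 contractile genes and *Ctgf* rose with PD0325901, and none of the 9 genes fell (5 of 9 higher, against 3.09% of 11299 genes tested called higher and 4.17% called lower). *Acta2* was 46.9 and 46.5 FPKM in the untreated libraries and 819 and 773 with PD0325901, 17.0-fold higher (log2 fold change 4.09 ± 0.23, adjusted p = 1.00e-04). *Cnn1*, which encodes the actin-binding protein calponin, was 2.94 and 3.19 FPKM and 45.0 and 38.4 (log2 fold change 3.72 ± 0.12, adjusted p = 5.47e-06). *Myl9*, a regulatory light chain of myosin II, was 37.5 and 39.0 and 377 and 454 FPKM (log2 fold change 3.43 ± 0.17, adjusted p = 3.81e-05). The treated and untreated libraries of these genes did not overlap. Same-numbered PD0325901, 4OHT day 6 and 4OHT + PD0325901 libraries shared deviations from their group means (r = 0.206 to 0.259). With untreated libraries these correlations were -0.0252 to 0.0376. If a batch set the untreated libraries apart from these groups, it could not be told apart from the treatments. In these bulk samples, a change in the share of cells that express a gene and a change in RNA per cell cannot be told apart. Summed smooth muscle and pericyte markers were 13.6 to 16.1 FPKM with PD0325901 and 3.87 to 4.91 in untreated cells, where the pericyte marker *Rgs5* is listed at 0 in both libraries, and their part in these values was not tested. *Actg1*, the only gene that shares windows with *Acta2*, was 1558 ± 20.1 FPKM untreated and 2445 ± 338 with PD0325901.

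*Tagln*, which encodes the actin-binding protein transgelin, was 142 and 168 FPKM in untreated cells and 969.7 and 887 with PD0325901 (log2 fold change 2.58 ± 0.43, adjusted p = 0.00876). *Ctgf*, a secreted matricellular factor, was 41.0 and 40.7 FPKM and 465 and 136 (log2 fold change 2.62 ± 0.49, adjusted p = 0.0138). Its treated libraries differed by more than the untreated ones, although both were above them. Without untreated replicate 1 or 2 the call of *Ctgf* was lost (log2 fold changes 2.62, adjusted p = 0.0787, and 2.61, adjusted p = 0.0849), as was that of *Tagln* (2.47, adjusted p = 0.0659, and 2.70, adjusted p = 0.0541), and that of *Tagln* also without PD0325901 replicate 1 (2.52, adjusted p = 0.0507). With only the untreated and PD0325901 libraries in the fit *Ctgf* was not called either (adjusted p = 0.0575). The calls of *Acta2*, *Cnn1* and *Myl9* were kept without each library in turn.

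The relatives and partners of these genes took different values with PD0325901. *Cyr61*, a matricellular relative of *Ctgf*, was 489 and 451 FPKM untreated and 645 and 275 treated, and the groups overlapped (log2 fold change -0.16 ± 0.34, adjusted p = 0.814). *Thbs1*, a matricellular protein that can release active TGF-beta from its latent form, was 199.8 and 214 and 435 and 194 FPKM (log2 fold change 0.49 ± 0.33, adjusted p = 0.377). In both genes replicate 1 was the high library and replicate 2 was below or close to the untreated level, and without replicate 2 *Thbs1* was called higher (1.07, adjusted p = 0.0211). *Tgfb1*, the ligand itself, was 10.0 and 11.4 FPKM untreated and 7.66 and 9.16 treated (adjusted p = 0.275), and *Tgfbi*, a matrix protein known as a TGF-beta target, was 68.6 and 69.0 and 74.5 and 97.0 FPKM (adjusted p = 0.235). Neither was called.

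**Figure D1:**
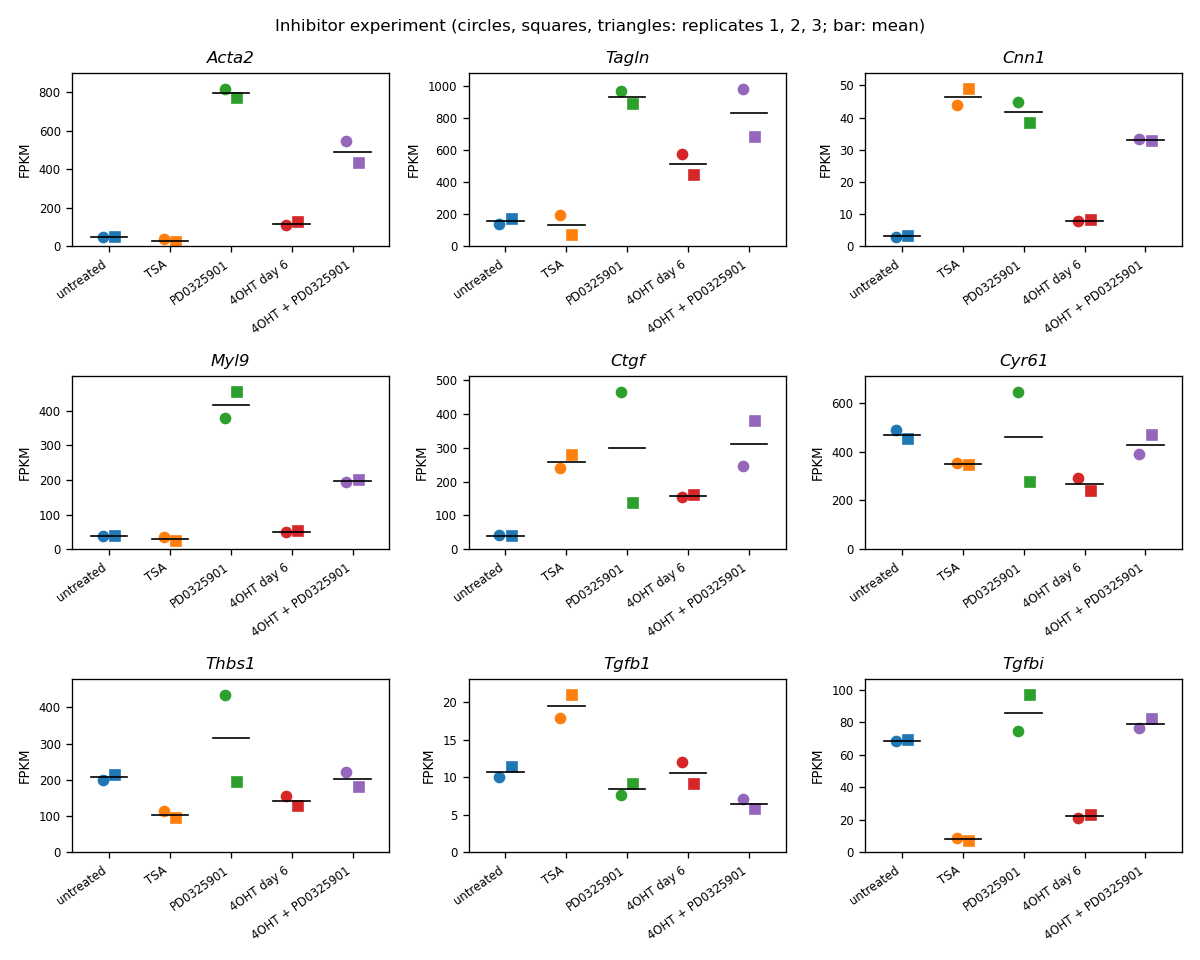
FPKM of the 9 genes in the 10 libraries of the inhibitor experiment, 1 panel for each gene, with a point for each replicate and a bar at the group mean. *Acta2* was 819 and 773 FPKM with PD0325901, against 46.9 and 46.5 in untreated libraries, and *Cnn1* was high with both TSA and PD0325901.

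TSA separated the contractile genes from one another. *Cnn1* and *Ctgf* rose, *Thbs1* and *Tgfbi* fell, and 5 of the 9 genes were not called (19.3% of the genes tested were called higher and 12.8% lower, so that calls were frequent). *Cnn1* was 43.9 and 48.9 FPKM with TSA (log2 fold change 3.88 ± 0.12, adjusted p = 1.05e-06), near its level with PD0325901. *Ctgf* was 239.8 and 277 FPKM (log2 fold change 2.66 ± 0.49, adjusted p = 0.00253). *Acta2*, by contrast, was 36.2 and 21.1 FPKM with TSA, below both untreated libraries, and was not called (log2 fold change -0.75 ± 0.23, adjusted p = 0.0264). *Tagln* was 196 and 70.9 and *Myl9* 36.4 and 25.5 FPKM. Without TSA replicate 1, *Acta2* (-1.14, adjusted p = 0.00252) and *Tagln* (-1.12, adjusted p = 0.0135) were called lower.

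Of the 9 genes *Tgfbi* had the deepest fall, to 8.99 and 7.15 FPKM with TSA from 68.6 and 69.0 in untreated cells (log2 fold change -3.08 ± 0.15, adjusted p = 9.41e-06), 8.52-fold lower. *Thbs1* was 113 and 93.8 FPKM with TSA (log2 fold change -1.005 ± 0.33, adjusted p = 0.0340), a change that lay at the fold limit. Its call was lost with a pseudocount of 1, with no filter on FPKM (adjusted p = 0.0512), without either untreated library (-1.05, adjusted p = 0.0929, and -0.96, adjusted p = 0.121) and without either TSA library (-1.14, adjusted p = 0.0684, and -0.87, adjusted p = 0.151). *Tgfb1* was 17.9 and 21.0 FPKM, above both untreated libraries, with a fold under the limit (log2 fold change 0.85 ± 0.19, adjusted p = 0.00669). In the same libraries summed smooth muscle and pericyte markers were 10.0 to 11.5 FPKM, against 3.87 to 4.91 in untreated cells, and summed endothelial markers 2.04 to 2.25 against 0.129 to 0.211. Summed macrophage markers were 61.0 to 67.3 FPKM, against 4.42 to 5.03 in untreated cells, and summed epithelial markers 31.3 to 32.4 against 1.28 to 1.39. Only 1 of the 3 macrophage markers measured had a mean of 1 FPKM or more with TSA, so that this sum is nearly all 1 gene. Of the 4 epithelial markers, 2 reached that mean. The part of these markers in the values above was not tested.

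With 4OHT in the same experiment part of the set rose. At 4OHT day 6, *Acta2*, *Tagln*, *Cnn1* and *Ctgf* rose and *Tgfbi* fell (4 and 1 of 9, against 4.87% called higher and 6.21% lower among all genes tested). *Acta2* was 110.4 and 127 FPKM (log2 fold change 1.34 ± 0.23, adjusted p = 0.00734), *Tagln* was 574 and 448 (log2 fold change 1.71 ± 0.43, adjusted p = 0.0252), and *Cnn1* was 7.85 and 8.15 (log2 fold change 1.36 ± 0.12, adjusted p = 5.88e-04). *Ctgf* was 153 and 159.5 FPKM (log2 fold change 1.93 ± 0.49, adjusted p = 0.0270), and *Tgfbi* was 21.3 and 23.0 FPKM, 3.11-fold lower than untreated (log2 fold change -1.63 ± 0.15, adjusted p = 8.31e-04). *Myl9* was 49.1 and 51.7 FPKM and *Cyr61* 294 and 239.8, and neither was called. The calls of *Tagln* and *Ctgf* were lost without each of the 4 libraries in turn, with adjusted p from 0.0644 to 0.124 for *Tagln* and from 0.0834 to 0.115 for *Ctgf*, and that of *Acta2* without untreated replicate 2 (1.33, adjusted p = 0.0512).

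In cells given 4OHT, contractile genes again rose with PD0325901, by smaller folds. *Acta2*, *Cnn1*, *Myl9* and *Tgfbi* rose in 4OHT + PD0325901 against 4OHT day 6 (4 of 9, against 2.39% higher and 1.39% lower among all genes). *Acta2* was 548 and 436 FPKM (log2 fold change 2.05 ± 0.23, adjusted p = 0.00379), *Cnn1* was 33.4 and 32.7 (log2 fold change 2.03 ± 0.12, adjusted p = 2.13e-04) and *Myl9* was 195 and 199.9 (log2 fold change 1.97 ± 0.17, adjusted p = 0.00115). *Tgfbi*, which had fallen with 4OHT alone, was 76.5 and 82.0 FPKM, near its untreated level (log2 fold change 1.84 ± 0.15, adjusted p = 0.00115). These 4 calls were kept without each library in turn. Summed smooth muscle and pericyte markers were 8.75 to 11.3 FPKM with both agents and 4.37 to 8.33 at 4OHT day 6, and their part was not tested. *Tagln* was already high at 4OHT day 6 and was 983 and 679 FPKM with both agents (adjusted p = 0.385). *Ctgf* was 246 and 377 and *Tgfb1* 7.06 and 5.74 FPKM, not called.

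The change with PD0325901 differed between cells with and without 4OHT in 4 of the 9 genes by the interaction term (0.743% of genes tested passed an adjusted p of 0.05). On the log2 scale the change with PD0325901 was smaller after 4OHT by 2.04 for *Acta2* (interaction -2.04, adjusted p = 0.0481), by 1.68 for *Cnn1* (interaction -1.68, adjusted p = 0.00760) and by 1.47 for *Myl9* (interaction -1.47, adjusted p = 0.0465). For *Tgfbi* it was larger (interaction 1.53, adjusted p = 0.0345). *Acta2* and *Myl9* lost this call without each of the 8 libraries, and *Tgfbi* lost it without 7 of the 8, all but PD0325901 replicate 2. The call of *Cnn1* was kept without each library in turn, and without PD0325901 replicate 2 *Ctgf* also passed (-2.54, adjusted p = 0.0201). Other filters, pseudocounts and scalings also ended the calls of *Acta2* (adjusted p = 0.0533 to 0.0798 in 4 alternatives) and *Myl9* (0.0503 to 0.0846 in 3), and quantile normalization that of *Tgfbi* (0.0616). A replicate block in the fit also ended the calls of *Acta2* (adjusted p = 0.0519) and *Myl9* (0.0606), and kept those of *Cnn1* and *Tgfbi*. The 5 groups of this experiment share the untreated or the 4OHT libraries, and their changes are given side by side only.

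In the total RNA experiment the change at day 5 was small and that in long-term KO cells was not. Time since 4OHT and growth in culture after it cannot be told apart between these groups. At day 5 only *Thbs1* was called, lower (1 of 9, against 2.08% of 8577 genes called higher and 1.35% lower), although 8 of the 9 genes, all but *Tagln*, had an adjusted p under 0.05, against 37.5% of all genes tested. *Ctgf* did not pass that limit without any 1 library (adjusted p = 0.0673 to 0.113). *Thbs1* was 157, 147 and 142 FPKM in untreated cells and 59.5, 59.2 and 60.9 at day 5 (log2 fold change -1.31 ± 0.04, adjusted p = 2.13e-07). The 3 libraries of each group lay close together and far from those of the other group. *Acta2* was 38.1, 38.6 and 22.7 FPKM untreated and 16.5, 17.9 and 17.8 at day 5, below every untreated library (log2 fold change -0.89 ± 0.21, adjusted p = 0.0117). Untreated replicate 3 was its lowest untreated library, and without it *Acta2* was called lower (-1.14, adjusted p = 6.40e-04). Summed epithelial markers were 4.19 to 5.27 FPKM at day 5 and 1.22 to 1.56 in untreated cells, and summed smooth muscle and pericyte markers 3.13 to 3.26 and 2.25 to 2.57. Their part in these values was not tested.

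The remaining genes moved by less than 2-fold at day 5. *Cnn1* was 1.52, 1.37 and 1.40 FPKM untreated and 2.61, 2.32 and 2.63 at day 5, and *Tgfb1* 1.37, 1.58 and 1.66 and 2.01, 2.06 and 2.41, and all day 5 libraries of both genes were above all untreated ones. *Cyr61* was 211, 217 and 211 FPKM untreated and 147, 149 and 165 at day 5, and *Ctgf* 21.9, 22.7 and 21.6 and 18.01, 16.5 and 18.2, and here the day 5 libraries were the lower ones. *Myl9* (21.9, 20.0 and 22.3 FPKM untreated, 16.5, 18.3 and 17.9 at day 5) was lower in the same way. So was *Tgfbi* (13.1, 14.3 and 12.3 FPKM, and 10.6, 11.0 and 10.5). *Tagln* was 203, 183 and 155 and 167, 167 and 164 FPKM, and the groups overlapped. The share of all genes with groups that did not overlap is not given.

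**Figure D2:**
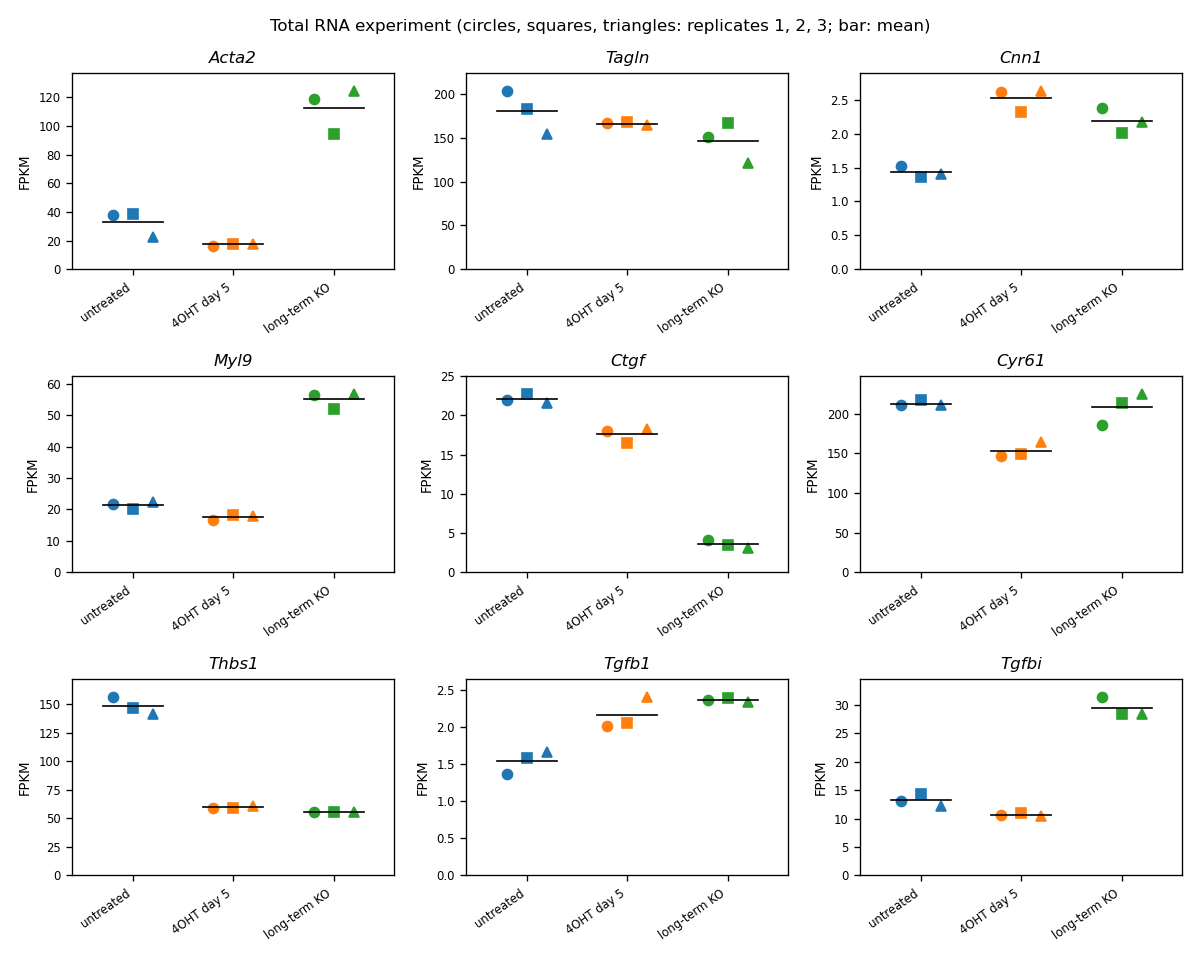
FPKM of the 9 genes in the 9 libraries of the total RNA experiment, 1 panel for each gene, with a point for each replicate and a bar at the group mean. In long-term KO cells *Acta2* was between 94.3 and 124 FPKM and *Ctgf* between 3.04 and 4.18, outside the range of the untreated libraries in opposite directions.

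In long-term KO cells *Acta2*, *Myl9* and *Tgfbi* rose and *Ctgf* and *Thbs1* fell against untreated cells (3 and 2 of 9, against 7.78% higher and 6.41% lower among all genes), and these 5 calls were kept without each library in turn. *Acta2* was 119, 94.3 and 124 FPKM, 3.40-fold higher than untreated (log2 fold change 1.79 ± 0.21, adjusted p = 1.13e-04). *Myl9* was 21.9, 20.0 and 22.3 FPKM untreated and 56.4, 52.1 and 56.8 in long-term KO (log2 fold change 1.36 ± 0.06, adjusted p = 5.81e-07). *Tgfbi* was 13.1, 14.3 and 12.3 and 31.5, 28.5 and 28.4 FPKM (log2 fold change 1.15 ± 0.07, adjusted p = 2.12e-06). *Tagln* was not called, at 151, 167 and 121 FPKM (adjusted p = 0.0716), and *Cnn1* was 2.37, 2.01 and 2.17 FPKM (log2 fold change 0.58). Only 2 of the 4 contractile genes thus passed both limits. Summed smooth muscle and pericyte markers were 6.44 to 6.79 FPKM in long-term KO and 2.25 to 2.57 in untreated cells, and their part in these values was not tested.

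The pair of matricellular relatives parted in these cells. *Ctgf* was 4.18, 3.47 and 3.04 FPKM, 6.20-fold lower than untreated (log2 fold change -2.61 ± 0.10, adjusted p = 3.29e-07), whereas *Cyr61* was 186, 214 and 225 FPKM, with 1 library below, 1 within and 1 above the range of the untreated libraries (log2 fold change -0.04 ± 0.08, adjusted p = 0.695). *Thbs1* was 55.8, 56.0 and 55.5 FPKM (log2 fold change -1.41 ± 0.04, adjusted p = 4.93e-08), close to its day 5 level. *Tgfb1* was 2.37, 2.39 and 2.34 FPKM, above all untreated libraries by a fold under the limit (log2 fold change 0.60 ± 0.09, adjusted p = 6.02e-04). The long-term and day 5 comparisons share the untreated libraries.

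Set against day 5 directly, long-term KO cells had higher *Acta2*, *Myl9* and *Tgfbi* and lower *Ctgf* (3 and 1 of 9, against 6.72% higher and 6.16% lower). *Acta2* was 6.46-fold higher (log2 fold change 2.68 ± 0.21, adjusted p = 1.23e-05), *Myl9* 3.13-fold (log2 fold change 1.64 ± 0.06, adjusted p = 2.53e-07) and *Tgfbi* 2.75-fold (log2 fold change 1.45 ± 0.07, adjusted p = 7.10e-07). *Ctgf* was 4.93-fold lower (log2 fold change -2.28 ± 0.10, adjusted p = 7.50e-07). These 4 calls were kept without each library in turn.

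In the siRNA experiment, *Myl9*, *Cyr61* and *Thbs1* fell with 4OHT + siCtrl against siCtrl (3 of 9, against 2.58% higher and 3.47% lower among 10562 genes tested). *Myl9* was 214 and 226 FPKM with siCtrl and 75.7 and 20.1 with 4OHT + siCtrl (log2 fold change -2.49 ± 0.56, adjusted p = 0.0372). *Cyr61* was 577 and 568 and 258 and 94.4 FPKM (log2 fold change -1.87 ± 0.42, adjusted p = 0.0357), and *Thbs1* was 368 and 299 and 143 and 67.5 (log2 fold change -1.76 ± 0.34, adjusted p = 0.0242). In all 3 genes both 4OHT libraries were below both siCtrl libraries, and replicate 2 was far below replicate 1. With only these 2 groups in the fit none of the 3 was called (adjusted p = 0.115 to 0.139), and with no filter on FPKM only *Thbs1* was. Quantile normalization ended the call of *Cyr61* (adjusted p = 0.0502).

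*Acta2* was 409.7 and 438 FPKM with siCtrl and 159 and 30.0 with 4OHT + siCtrl, 4.49-fold lower in the mean, and was not called (log2 fold change -2.62 ± 0.74, adjusted p = 0.0651). *Tagln* (411 and 118 FPKM), *Cnn1* (8.61 and 2.29) and *Ctgf* (117 and 25.6) also had replicate 2 far below replicate 1, and only *Tgfb1* (11.2 and 9.24) and *Tgfbi* (20.4 and 20.3) had like values in the pair. *Ctgf* was above siCtrl (57.4 and 56.3 FPKM) in replicate 1 and below it in replicate 2. Without 4OHT + siCtrl replicate 2, 5 genes were called, among them *Acta2* (-1.42, adjusted p = 0.0462) and *Ctgf*, higher (1.04, adjusted p = 0.0479), and without replicate 1, 6 were called, among them *Acta2* (-3.81, adjusted p = 0.00361), *Tagln* (-2.13, adjusted p = 7.54e-04) and *Ctgf*, lower (-1.15, adjusted p = 0.0399). Without either siCtrl library no gene of the 9 was called. Summed epithelial markers were 1.12 and 12.6 FPKM in this pair of libraries, and their part in the spread was not tested.

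**Figure D3:**
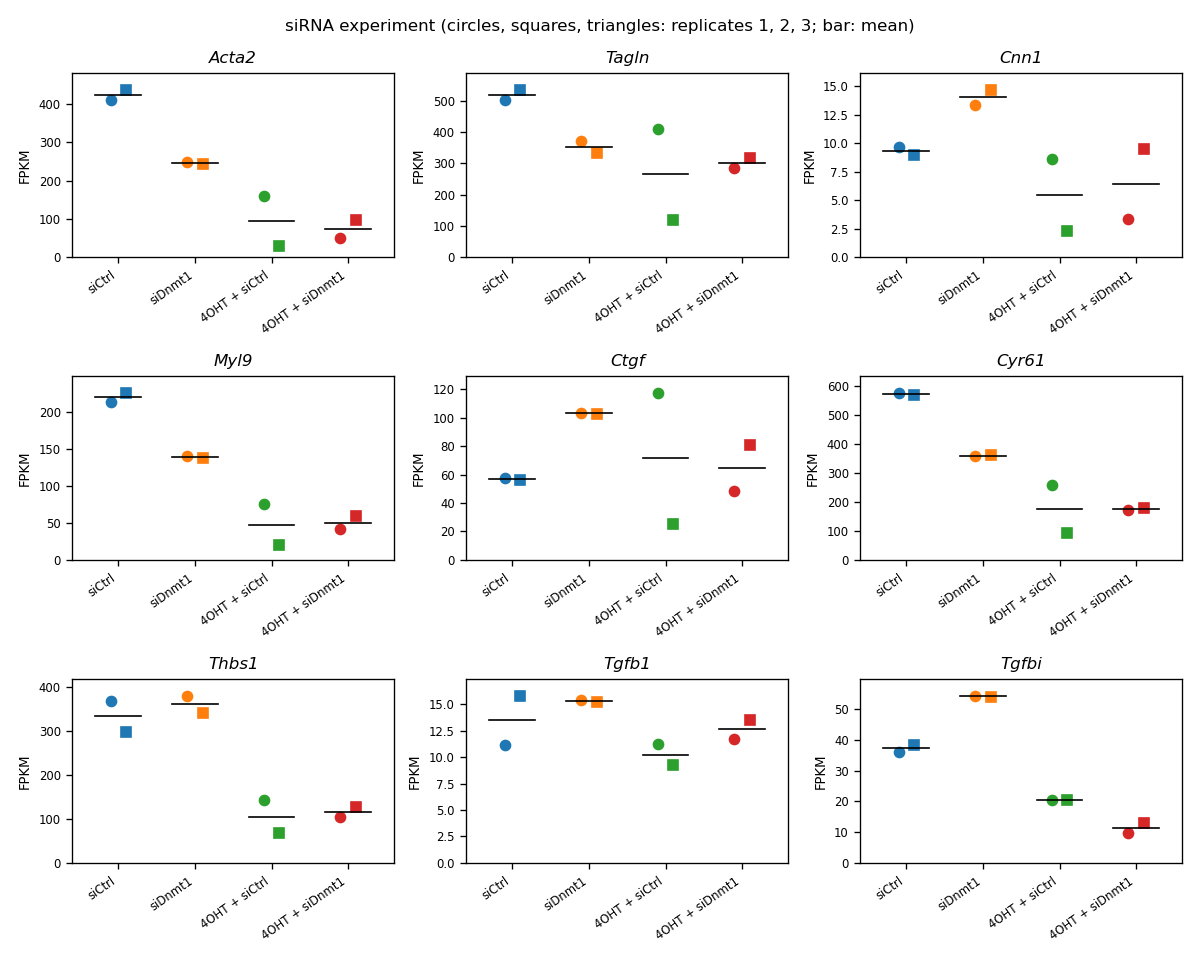
FPKM of the 9 genes in the 8 libraries of the siRNA experiment, 1 panel for each gene, with a point for each replicate and a bar at the group mean. The 4OHT + siCtrl libraries are spread widely, for example at 159 and 30.0 FPKM for *Acta2*, while siCtrl and siDnmt1 libraries lie close together.

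Knockdown of *Dnmt1* alone led to no call among the 9 genes (0 of 9, against 2.38% higher and 2.46% lower), and 1 of the 9, *Tgfbi*, had an unadjusted p under 0.05 by limma, against 26.0% of all genes tested. All 9 differences were under 2-fold, the largest that of *Ctgf* (log2 fold change 0.86), so that the fold limit alone left no call. The spread of the fit is shared with the wide 4OHT pairs. *Acta2* was 249 and 244 FPKM with siDnmt1 against 409.7 and 438 with siCtrl, and *Cyr61* was 359.6 and 361 against 577 and 568. *Tagln* was 373 and 332 FPKM against 503 and 536, and *Myl9* 140 and 138 against 214 and 226. All of these were lower in both libraries. The share of all genes separated in this way, lower or higher, is not given, so that this is no result about the set. *Ctgf* was 103 and 103 FPKM against 57.4 and 56.3, *Cnn1* 13.4 and 14.7 against 9.66 and 8.97 and *Tgfbi* 54.4 and 53.9 against 36.0 and 38.4, and these were higher in both libraries (adjusted p = 0.461, 0.637 and 0.0723). Summed epithelial markers were 55.4 to 55.8 FPKM with siDnmt1 and 0.677 to 0.986 with siCtrl, and their part in these values was not tested.

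*Dnmt1* knockdown in cells given 4OHT also led to no call (0 of 9 by limma, against 1.05% higher and 0.407% lower), and 1 of the 9 had an unadjusted p under 0.05, against 19.6% of all genes. *Tgfbi* was lower, at 9.73 and 12.9 FPKM against 20.4 and 20.3, with a fold under the limit (log2 fold change -0.86 ± 0.14, adjusted p = 0.0452). *Acta2* was 48.4 and 97.0 FPKM, within the range of the 4OHT + siCtrl pair. Summed epithelial markers were 53.5 to 86.2 FPKM in the 4OHT + siDnmt1 libraries, against 1.12 to 12.6, and their part was not tested. The interaction of 4OHT and siDnmt1 passed for none of the 9 by limma (0.199% of genes tested passed), and the 1 gene with an unadjusted p under 0.05 (10.0% of all genes tested) was *Tgfbi* (-1.40, adjusted p = 0.114). Without 4OHT + siCtrl replicate 1, *Tagln*, *Myl9* and *Ctgf* were called higher with siDnmt1 (1.35, adjusted p = 0.00253, 1.30, adjusted p = 0.0131, and 1.28, adjusted p = 0.0328) and the interaction passed for 4 genes, whereas without replicate 2 neither gave a call. Without 4OHT + siDnmt1 replicate 2, *Tgfbi* was called in both (-1.06, adjusted p = 0.0203 for the change, and -1.60, adjusted p = 0.0234 for the interaction).

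**Figure D4:**
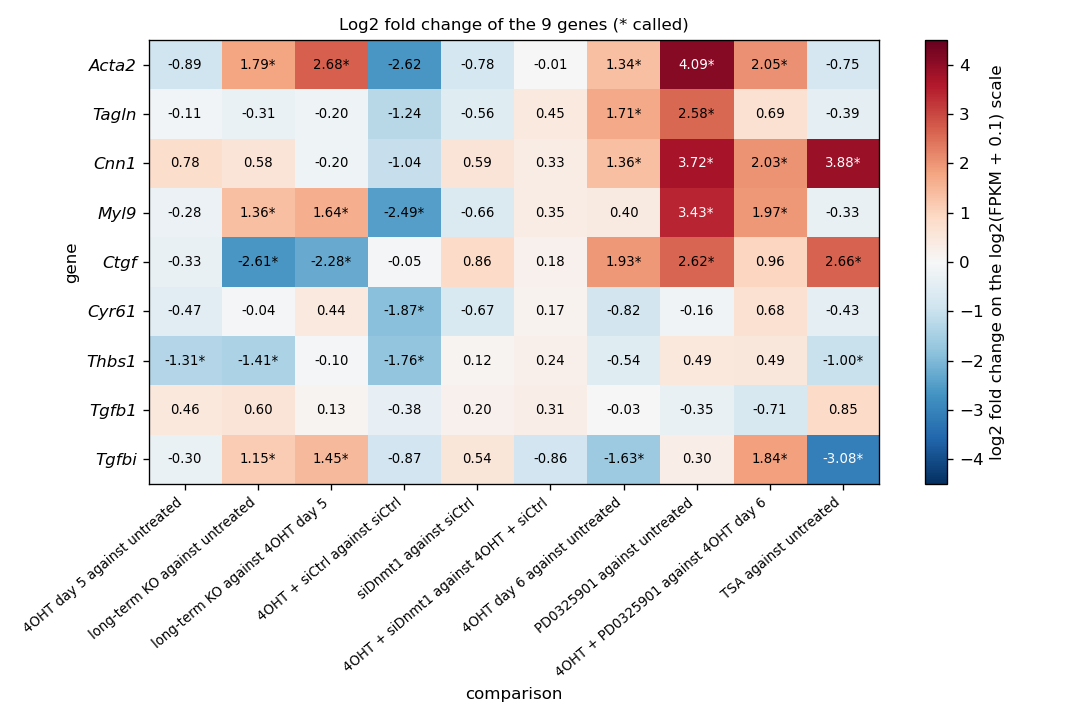
Log2 fold change on the log2(FPKM + 0.1) scale of each gene (rows) in each of the 10 comparisons (columns), with the value printed in each cell, red for higher and blue for lower, and an asterisk for a call. The *Acta2* row runs from -2.62 with 4OHT + siCtrl to 4.09 with PD0325901, and the *Tgfb1* row holds no call.

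The 3 comparisons of 4OHT with its own control, side by side, gave *Acta2* log2 fold changes of -0.89 at day 5 in total RNA, -2.62 at day 6 with siCtrl and 1.34 at day 6 in the inhibitor experiment. *Thbs1* was lower in all 3 (-1.31, -1.76 and -0.54, of which the last was not called), and so was *Tgfbi* (-0.30, -0.87 and -1.63, of which only the last was called). The starting level of *Acta2* was highest in the experiment in which it was lower after 4OHT by the largest fold. The experiments were not tested against each other.

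Across the 18 siRNA and inhibitor libraries, on log2(FPKM + 0.1) centred within each experiment, *Acta2* was most alike to *Myl9* (Pearson r = 0.975 across libraries that share treatments and controls), then *Fstl1* (0.948), *Masp1* (0.927), *Tagln* (0.923) and *Zyx* (0.923) among 10115 genes. For *Ctgf* the most alike were *Ywhag* (0.909), *Efnb1* (0.887), *Scube3* (0.871), *Cnn1* (0.869) and *Stbd1* (0.866). *Cnn1* was thus nearer to *Ctgf* than to *Acta2* (r = 0.499), and *Cyr61* was nearer to *Thbs1* (r = 0.853) than to *Ctgf* (r = 0.227). *Tgfb1* ran opposite to *Tagln* (r = -0.564) and *Tgfbi* (r = -0.572).

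Other genes of the contractile and Srf target list also rose with PD0325901. Of 24 such genes tested, 12 rose and 0 fell (3.09% and 4.17% of all genes tested; median log2 fold change 1.00, against -0.069 over all genes tested). The lists were chosen with earlier results of these data known, so that their counts are no independent support. *Actg2*, the enteric smooth muscle actin, rose from 0.0671 ± 0.00458 to 3.77 ± 0.510 FPKM and *Lmod1*, the smooth muscle leiomodin, from 0.304 ± 0.105 to 3.60 ± 0.922 FPKM. With TSA 8 of the 24 rose and 0 fell (19.3% and 12.8% of all genes tested), among them the intermediate filament gene *Des* (from 0.105 ± 0.0438 to 1.82 ± 0.532 FPKM). At 4OHT day 6, 4 rose and 0 fell (4.87% and 6.21% of all genes), and with 4OHT + PD0325901 against 4OHT day 6, 3 rose (2.39% of all genes). With 4OHT + siCtrl 0 rose and 3 fell (2.58% and 3.47% of all genes). In long-term KO cells 2 of 15 tested rose against untreated cells (7.78% of all genes), *Lmod1* among them (from 0.112 ± 0.0119 to 1.11 ± 0.0488 FPKM).

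TGF-beta genes beyond the members moved in both directions. Of 15 other target genes tested with PD0325901, 5 rose and 2 fell (3.09% and 4.17% of all genes tested), with a median log2 fold change of 0.67. *Postn*, a matrix gene of myofibroblasts, rose from 13.4 ± 0.0731 to 493 ± 219.8 FPKM and *Klf10* fell from 24.3 ± 0.723 to 9.14 ± 0.965 FPKM. At 4OHT day 6, 6 of the 15 rose and 2 fell (4.87% and 6.21% of all genes), and *Pmepa1*, a Smad-induced feedback gene, rose from 4.14 ± 0.304 to 18.2 ± 6.89 FPKM. *Tgfbr2*, the type II receptor, fell from 106 ± 9.39 to 26.1 ± 0.858 FPKM at 4OHT day 6. It also fell from 99.6 ± 1.32 to 29.1 ± 0.768 FPKM in long-term KO total RNA. In either it was the only receptor of 3 tested to be called (6.21% and 6.41% of all genes called lower). At day 5, where *Tgfbr2* was 61.5 ± 1.53 FPKM, and with 4OHT + siCtrl, 0 of the 3 were called. *Postn* differed between day 5 and long-term KO cells in total RNA. It fell from 7.31 ± 0.567 to 0.725 ± 0.0637 FPKM at day 5. Against day 5 it rose from 0.725 ± 0.0637 to 27.1 ± 0.619 FPKM in long-term KO cells. *Smad6*, an inhibitory Smad, rose from 0.946 ± 0.129 to 8.28 ± 0.152 FPKM in long-term KO cells.

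*Tgfb1* was called in none of the 10 comparisons, whereas other ligand and latency genes were, in both directions. Of 10 such genes tested, 4 rose and 0 fell with PD0325901 (3.09% and 4.17% of all genes). With TSA 0 rose and 4 fell (19.3% and 12.8%), and in long-term KO cells 4 rose and 1 fell (7.78% and 6.41%). At day 5 0 rose and 2 fell (2.08% and 1.35%), as with 4OHT + siCtrl (2.58% and 3.47%). At 4OHT day 6 1 rose and 2 fell (4.87% and 6.21%). *Dcn*, which encodes the TGF-beta-binding proteoglycan decorin, fell from 11.6 ± 0.596 to 3.81 ± 0.386 FPKM at day 5, from 49.3 ± 0.105 to 1.39 ± 0.00572 FPKM with 4OHT + siCtrl and from 11.5 ± 0.287 to 1.59 ± 0.699 FPKM at 4OHT day 6. It also fell with siDnmt1 alone, from 49.3 ± 0.105 to 16.3 ± 0.0231 FPKM, and rose with siDnmt1 after 4OHT, from 1.39 ± 0.00572 to 3.77 ± 0.208 FPKM. The Yap and Tead list had 1 of 17 genes higher with PD0325901, against 3.09% of all genes tested, and 2 higher and 7 lower with TSA, against 19.3% and 12.8%. In long-term KO cells 0 of 13 genes of this list tested rose and 2 fell, against 7.78% and 6.41% of all genes. The median log2 fold change of the list was 0.14 there, against 0.065 over all genes. *Ankrd1*, a Yap target, was among the 2 and fell from 69.4 ± 3.61 to 12.8 ± 2.25 FPKM. *Ctgf* also fell in these cells, whereas *Cyr61* was not called. With siDnmt1 1 of 17 genes of the list rose (2.38% of all genes), *Ankrd1*, from 87.0 ± 13.7 to 234 ± 19.0 FPKM. Of 3 other Ccn family genes tested, 2 rose and 0 fell in long-term KO cells (7.78% and 6.41% of all genes). *Nov* was among them and rose from 0.751 ± 0.0911 to 6.04 ± 0.299 FPKM. With PD0325901 2 of the 3 rose and 0 fell (3.09% and 4.17% of all genes). With TSA 1 rose and 2 fell (19.3% and 12.8%), among them *Wisp1*, from 30.9 ± 0.554 to 4.59 ± 1.54 FPKM.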

How the data were processed

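RNA-seq of *Setdb1* cKO iMEFs was analysed in 27 libraries of 12 groups. Per the study's methods and the file headers, the authors used TopHat2 2.0.12 for alignment to mm9 and assembled each library alone with Cufflinks on RefSeq genes. The FPKM deposited by the authors were used as they stand. Total RNA was depleted of rRNA, and its libraries carry no gene names: a row was matched to a gene by position, if it covered 95% of the gene and no other gene. Deposited tables of the authors' comparisons, with fold changes and p-values, were not used.

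The test was limma 3.58.1 (R 4.3.3), run for each experiment on all of its groups after log2 transformation of FPKM with 0.1 added. Variances were trended, tests two-sided and p-values adjusted by Benjamini-Hochberg over all tested genes. Genes entered the test with 1 FPKM or more in at least 3 total RNA libraries, or 2 libraries in the other experiments. Other steps used Python 3.11.15. The fit was also run on simulated data with independent noise between libraries. Such data do not reproduce libraries of a group that differ across many genes at once.

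The 9 genes, the lists and the motifs were chosen with earlier results of these data known. Besides the 9, each comparison names at most the 3 highest and 3 lowest called list genes, and the 5 genes most alike to *Acta2* and *Ctgf*. The alternatives were other pseudocounts, filters, scalings, samples in the fit, fold limits and a replicate block. 1 of the 9 promoters and 1 gene list are not reported here.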

Additional observations from a re-analysis of the deposited data

Results flagged for a closer look

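The interaction of 4OHT and PD0325901 passed an adjusted p of 0.05 by limma for 4 of the 9 genes, at -2.04 for *Acta2*, -1.68 for *Cnn1*, -1.47 for *Myl9* and 1.53 for *Tgfbi* on the log2 scale. With a replicate block the calls of *Acta2* and *Myl9* were lost. That of *Cnn1* was kept without each library in turn.

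For the genes below, every 4OHT library was above its controls in one experiment and below them in another. The share of all genes with this pattern is not given, so it is no result about the set. With 2 libraries in a group, an exact permutation test of such a separation cannot go below p = 0.333. Some of these changes, such as those of *Myl9* at day 6 in the inhibitor experiment and *Ctgf* at day 5, were not called. These differences were not tested, and the experiments also differ in library type, day and transfection. *Acta2* was lower at day 5 (-0.89) and with 4OHT + siCtrl (-2.62) and higher at day 6 in the inhibitor experiment (1.34). *Myl9* was lower in the first 2 of these (-0.28 and -2.49) and higher in the last (0.40). *Tagln* was lower with 4OHT + siCtrl (-1.24) and higher at day 6 in the inhibitor experiment (1.71). *Cnn1* was higher at day 5 (0.78) and at day 6 in the inhibitor experiment (1.36) and lower with 4OHT + siCtrl (-1.04). *Ctgf* was lower at day 5 (-0.33) and higher at day 6 in the inhibitor experiment (1.93).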

How the results depend on the processing

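All values were recomputed under each alternative, and causes of changes were not tested. With no filter on FPKM, genes called numbered 478 for 4OHT day 5 against untreated (as reported: 294), 234 for 4OHT + siDnmt1 against 4OHT + siCtrl (as reported: 154) and 50 for interaction of 4OHT and siDnmt1 (as reported: 21). With no filter on FPKM, calls among the 9 numbered 1 for 4OHT + siCtrl against siCtrl (as reported: 3) and 2 for interaction of 4OHT and PD0325901 (as reported: 4). With a filter of 5 FPKM, genes called numbered 180 for 4OHT day 5 against untreated (as reported: 294), 762 for long-term KO against untreated (as reported: 1217), 681 for long-term KO against 4OHT day 5 (as reported: 1104), 290 for siDnmt1 against siCtrl (as reported: 511), 78 for 4OHT + siDnmt1 against 4OHT + siCtrl (as reported: 154) and 12 for interaction of 4OHT and siDnmt1 (as reported: 21). With no fold limit, genes called numbered 3213 for 4OHT day 5 against untreated (as reported: 294), 5832 for long-term KO against untreated (as reported: 1217), 5684 for long-term KO against 4OHT day 5 (as reported: 1104), 854 for siDnmt1 against siCtrl (as reported: 511), 1458 for 4OHT + siCtrl against siCtrl (as reported: 639), 2822 for 4OHT day 6 against untreated (as reported: 1252), 1550 for PD0325901 against untreated (as reported: 820), 789 for 4OHT + PD0325901 against 4OHT day 6 (as reported: 427) and 6313 for TSA against untreated (as reported: 3627). With no fold limit, calls among the 9 numbered 8 for 4OHT day 5 against untreated (as reported: 1) and 1 for 4OHT + siDnmt1 against 4OHT + siCtrl (as reported: 0). With a pseudocount of 1, genes called numbered 32 for interaction of 4OHT and siDnmt1 (as reported: 21). With a pseudocount of 0.01, calls among the 9 numbered 2 for interaction of 4OHT and PD0325901 (as reported: 4). With only the 2 groups compared in the fit, genes called numbered 868 for siDnmt1 against siCtrl (as reported: 511), 180 for 4OHT + siCtrl against siCtrl (as reported: 639), 29 for 4OHT + siDnmt1 against 4OHT + siCtrl (as reported: 154) and 102 for 4OHT + PD0325901 against 4OHT day 6 (as reported: 427). With only the 2 groups compared in the fit, calls among the 9 numbered 0 for 4OHT + siCtrl against siCtrl (as reported: 3). With quantile normalization, calls among the 9 numbered 1 for interaction of 4OHT and PD0325901 (as reported: 4). With quantile normalization, the log2 fold change of *Cyr61* in long-term KO against untreated turned to 0.0781, of *Acta2* in 4OHT + siDnmt1 against 4OHT + siCtrl turned to 0.00213, of *Tgfb1* in interaction of 4OHT and siDnmt1 turned to -0.00485, of *Tgfb1* in 4OHT day 6 against untreated turned to 0.0182. With median-ratio scaling, the log2 fold change of *Thbs1* in interaction of 4OHT and PD0325901 turned to -0.13.

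The labels do not say whether the same replicate numbers pair the libraries, and the main fit treats them as unpaired. The correlation of deviations of same-numbered libraries was from -0.0676 to 0.259, and not over 0.1 in all pairs. It was 0.206 to 0.259 between the PD0325901, 4OHT day 6 and 4OHT + PD0325901 libraries and -0.0252 to 0.0376 between these and the untreated ones. A replicate block gave 78 genes called for 4OHT + siDnmt1 against 4OHT + siCtrl (154 without it), 13 genes called for interaction of 4OHT and siDnmt1 (21 without it), 2 of the 9 called for interaction of 4OHT and PD0325901 (4 without it). The interaction calls it ended were those of *Acta2* and *Myl9* (adjusted p = 0.0519 and 0.0606). It also ended the call of *Myl9* in 4OHT + siCtrl against siCtrl (adjusted p = 0.0597), changed no other call of the 9 genes, and left *Ctgf* at day 5 with an adjusted p of 0.0521.

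Leaving out each library in turn, calls among the 9 ranged from 1 to 2 for 4OHT day 5 against untreated, 0 to 6 for 4OHT + siCtrl against siCtrl, 0 to 3 for 4OHT + siDnmt1 against 4OHT + siCtrl, 0 to 4 for interaction of 4OHT and siDnmt1, 2 to 3 for 4OHT day 6 against untreated, 3 to 6 for PD0325901 against untreated, 1 to 3 for interaction of 4OHT and PD0325901, all genes called from 73 to 106 for siDnmt1 against siCtrl, 82 to 1108 for 4OHT + siCtrl against siCtrl, 69 to 862 for 4OHT + siDnmt1 against 4OHT + siCtrl, 11 to 708 for interaction of 4OHT and siDnmt1, 658 to 1105 for 4OHT day 6 against untreated, 335 to 863 for PD0325901 against untreated, 273 to 402 for 4OHT + PD0325901 against 4OHT day 6, 32 to 180 for interaction of 4OHT and PD0325901, and the log2 fold changes that turned sign from -0.0938 to 0.0451 for *Cyr61* in long-term KO against untreated, -0.0462 to 0.45 for *Tgfb1* in siDnmt1 against siCtrl, -0.0302 to 0.27 for *Thbs1* in siDnmt1 against siCtrl, -1.15 to 1.04 for *Ctgf* in 4OHT + siCtrl against siCtrl, -1.21 to 1.19 for *Acta2* in 4OHT + siDnmt1 against 4OHT + siCtrl, -0.45 to 1.35 for *Tagln* in 4OHT + siDnmt1 against 4OHT + siCtrl, -0.60 to 1.26 for *Cnn1* in 4OHT + siDnmt1 against 4OHT + siCtrl, -0.60 to 1.30 for *Myl9* in 4OHT + siDnmt1 against 4OHT + siCtrl, -0.91 to 1.28 for *Ctgf* in 4OHT + siDnmt1 against 4OHT + siCtrl, -0.55 to 0.90 for *Cyr61* in 4OHT + siDnmt1 against 4OHT + siCtrl, -0.30 to 0.78 for *Thbs1* in 4OHT + siDnmt1 against 4OHT + siCtrl, -0.42 to 0.66 for *Thbs1* in interaction of 4OHT and siDnmt1, -0.15 to 0.35 for *Tgfb1* in interaction of 4OHT and siDnmt1, -1.19 to 0.68 for *Cnn1* in interaction of 4OHT and siDnmt1, -1.77 to 0.42 for *Ctgf* in interaction of 4OHT and siDnmt1, -0.43 to 1.97 for *Acta2* in interaction of 4OHT and siDnmt1, -0.22 to 0.16 for *Tgfb1* in 4OHT day 6 against untreated, -0.0935 to 1.07 for *Thbs1* in PD0325901 against untreated, -0.77 to 0.46 for *Cyr61* in PD0325901 against untreated, -1.12 to 0.34 for *Tagln* in TSA against untreated, -0.58 to 0.59 for *Thbs1* in interaction of 4OHT and PD0325901. No gene of the 9 lay in a row joined with another gene, so that the alternative with joined rows gave no other value. With quantile normalization the share of calls that were higher was 53.0% for PD0325901 against untreated (42.6% as reported), 48.4% for TSA (60.3%), 50.2% for 4OHT day 5 (60.5%) and 58.8% for 4OHT + siDnmt1 (72.1%), and with median-ratio scaling that of the PD0325901 interaction was 56.1% (71.4%).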
